A study of Mus musculus with 4 samples.

Results

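The genes described here encode the proteasome, the protease that degrades proteins tagged with ubiquitin. They are the protein-coding genes of GENCODE M21 whose whole symbol is Psm, a letter from a to g and a number. There are 48 of them among 21670 protein-coding genes on chromosomes 1 to 19 and X. The same prefix also opens the symbols of 2 further coding genes, Psmc3ip and Psme2b, which were not counted as members. Membership rests on the symbol and not on a value of any single gene.

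The core of the proteasome is a barrel of stacked rings, with the alpha subunits (Psma genes) forming the gated outer rings and the beta subunits (Psmb genes) the inner rings that cut proteins. Cutting is done by Psmb5, Psmb6 and Psmb7, whose places are taken by Psmb8, Psmb9 and Psmb10 in the immunoproteasome, a form induced by interferon that makes peptides for presentation on MHC class I molecules. Psmb11 is the catalytic subunit of thymic cortical epithelium and Psma8 an alpha subunit of male germ cells. The regulatory particle, built from ATPases (Psmc genes) and other subunits (Psmd genes), receives and unfolds substrates; Psme genes encode other activators, Psmf1 an inhibitor and Psmg genes chaperones that assemble the core. Heart muscle relies on the proteasome to turn over its contractile proteins.

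Trimethylation of lysine 4 of histone H3 (H3K4me3), a mark found at active promoters, was profiled by ChIP-seq (immunoprecipitation of chromatin, then sequencing) in the heart of B6CASTF1/J mice, which were female F1 hybrids aged 2 months. The tissue formed 2 pools, G (biological replicate 1) and H (biological replicate 2), each of 2 heart biosamples and each with 2 technical replicates, so 4 libraries in all. All labels carry the same donor record and nothing in them says that the pools came from separate animals. There was no other tissue, treatment or genotype.

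The data were 4 peak lists on mm10: 24996 peaks called replicated in both pools, the main list here; 24826 peaks of pool G; 21505 peaks of pool H; and 26412 peaks called on both pools with pseudoreplicates, which largely repeat the replicated list. Fold enrichment below is the authors' signal value of a gene's highest peak within 1000 bp of a coding start, and width is the length of the marked domain there after joining gaps of up to 1000 bp. The sources used here do not give the read depth. Values of the pools come from separately made lists and are set side by side without a test, because 2 pools allow none. In the replicated list a promoter peak was present at 6 of 6 cardiomyocyte, 0 of 7 leukocyte and 0 of 4 hepatocyte markers. Peaks were not confined to heart markers: 3 of 4 thymic epithelium and 1 of 6 male germ cell markers had one. Beside these, 63.0% of all protein-coding genes had a peak, and 46% of genes with CpG-poor promoters (defined below). All leukocyte and hepatocyte markers were CpG-poor, as were all but 1 of the cardiomyocyte markers. In whole tissue, a mark carried by fewer cells and a mark that is weaker per cell cannot be told apart.

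The DNA before 5 of the starts is shown because these genes carry the main contrasts: the constitutive catalytic subunits Psmb5 and Psmb6, the immune subunits Psmb8 and Psmb10, and Psme3, which had the highest fold enrichment in the replicated list. All are written 5′ to 3′ on the gene's strand in build GRCm38.p6 (mm10); Psmb8 was read from the genome before its first GENCODE start, and the others come from the RefSeq promoter table without bases annotated as UTR. Capitals mark matches to any of 8 searched motifs, on either strand. Psmb5 is chr14:54618023-54618245 (minus strand), Psmb6 chr11:70525107-70525356 (plus), Psmb8 chr17:34197471-34197720 (plus), Psmb10 chr8:105938445-105938642 (minus) and Psme3 chr11:101315963-101316212 (plus).
Psmb5: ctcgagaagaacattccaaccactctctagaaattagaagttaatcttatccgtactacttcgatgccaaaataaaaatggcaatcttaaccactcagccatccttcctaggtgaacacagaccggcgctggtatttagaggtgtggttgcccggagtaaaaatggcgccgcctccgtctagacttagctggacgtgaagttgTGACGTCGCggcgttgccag
Psmb6: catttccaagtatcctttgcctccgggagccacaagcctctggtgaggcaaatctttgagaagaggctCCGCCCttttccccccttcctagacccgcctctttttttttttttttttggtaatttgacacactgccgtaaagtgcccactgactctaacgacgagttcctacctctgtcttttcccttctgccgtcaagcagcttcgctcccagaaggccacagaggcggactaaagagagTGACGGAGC
Psmb8: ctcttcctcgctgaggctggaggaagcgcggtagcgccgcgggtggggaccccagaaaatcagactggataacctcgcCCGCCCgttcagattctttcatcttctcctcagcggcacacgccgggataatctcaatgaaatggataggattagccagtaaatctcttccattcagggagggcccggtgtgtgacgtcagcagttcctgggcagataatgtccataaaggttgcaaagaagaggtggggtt
Psmb10: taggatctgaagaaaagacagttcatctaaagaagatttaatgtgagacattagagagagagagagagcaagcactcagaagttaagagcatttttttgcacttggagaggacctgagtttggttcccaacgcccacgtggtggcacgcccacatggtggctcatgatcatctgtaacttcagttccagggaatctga
Psme3: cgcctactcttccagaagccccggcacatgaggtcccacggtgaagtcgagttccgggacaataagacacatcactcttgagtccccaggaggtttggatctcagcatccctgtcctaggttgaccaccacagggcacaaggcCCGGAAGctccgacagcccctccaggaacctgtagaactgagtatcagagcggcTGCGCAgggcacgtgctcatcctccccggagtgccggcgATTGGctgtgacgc

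Nearly the whole machine was marked in heart. A promoter peak was present in the replicated list at 46 of 48 genes (95.8%), where 63.0% of all protein-coding genes had one. Pool G's own list marked 47 members against 63.4% of all genes, pool H's 46 against 61.3%, and the pseudoreplicated list of both pools 47 against 63.4%. All 4 lists marked the same 46 members, against 61.1% of all genes. The 2 members outside that set were the germ cell subunit Psma8 and the thymic subunit Psmb11. The 43 members that are neither immune, thymic nor germ cell forms had a peak in all 4 lists, with a median fold enrichment of 17.6 in the replicated list and a range of 9.61 to 26.0.

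The marked members had similar and fairly high fold enrichments. Their median in the replicated list was 17.6 (quartiles 15.1 and 20.4), beside 15.3 for all marked genes (quartiles 10.5 and 19.01), and 32 of 46 lay above the median of all marked genes. In pool G the median was 20.8 beside 18.2 for all marked genes, with 33 of 47 members above; in pool H it was 14.5 beside 12.9, with 33 of 46 above. The SD of the members was 23.5% of their mean, and that of all marked genes 39.1%. In the replicated list 18 members reached the 75 percentile of all marked genes, 8 of them the 90 percentile, and 2 lay under the 25 percentile, Psmb8 and Psmf1. Widths lay near those of other genes: the members' median domain was 1733 bp beside 1799 bp for all marked genes, and 20 of 46 exceeded that value.

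**Figure D1:**
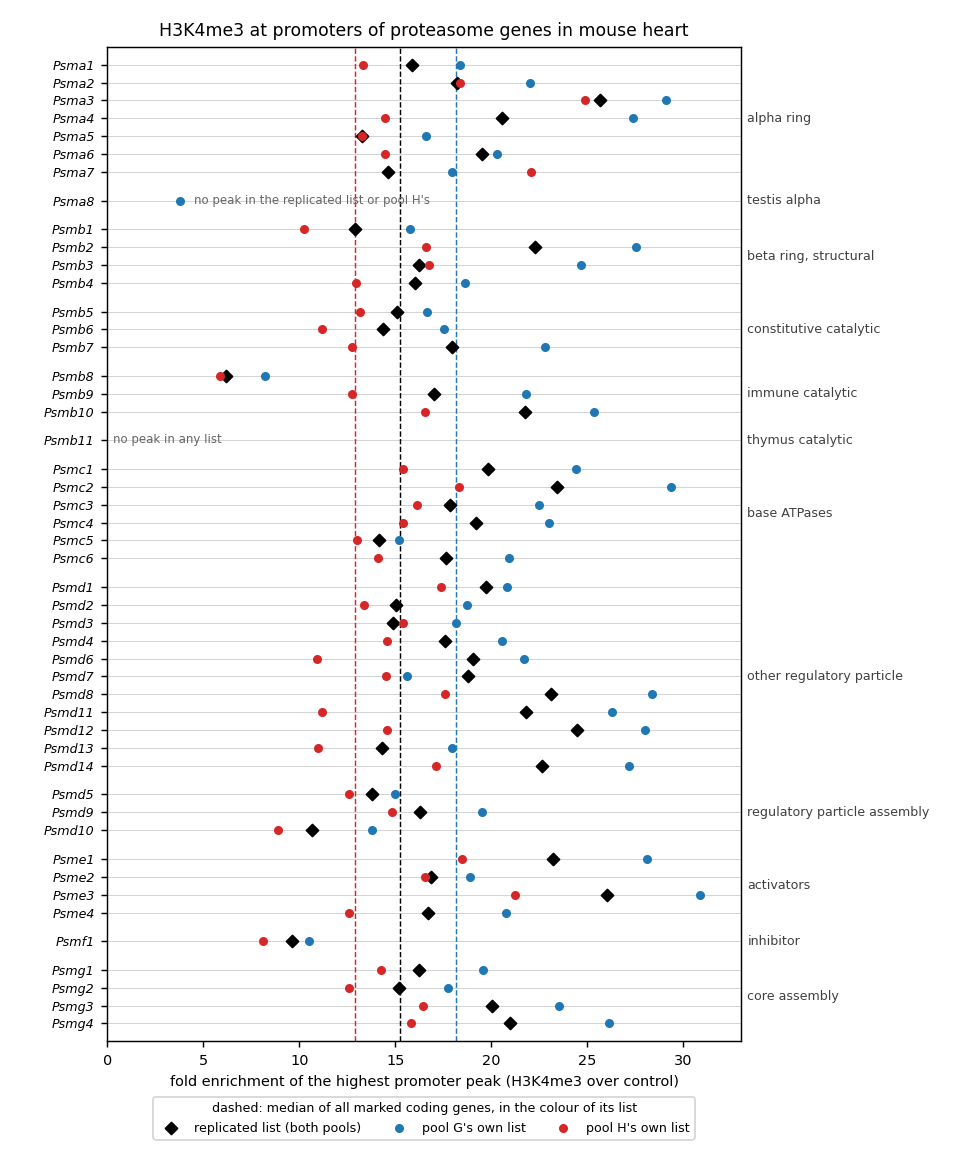
Fold enrichment (x axis, linear) of the highest promoter peak of each of the 48 genes (y axis, by structural class) in the replicated list (black diamonds), pool G's own list (blue) and pool H's own list (red), with the medians of all marked coding genes as dashed lines. Psmb8 lies at 6.16, 8.21 and 5.87, left of every dashed line, Psma8 has a point in pool G only and Psmb11 has none.

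The 7 general alpha ring genes, Psma1 to Psma7, were all marked in all 4 lists and had a median fold enrichment of 18.2 in the replicated list. The highest was Psma3, at 25.7 in the replicated list, 29.1 in pool G and 24.9 in pool H. The lowest was Psma5, at 13.3, 16.6 and 13.3 in the same order. Psma7 was the one marked member with a higher value in pool H (22.1) than in pool G (17.9), and its replicated value of 14.6 was below both. The replicated Psma7 peak also covered a start of Ss18l1, with its summit 432 bp from a Psma7 start and 356 bp from a Ss18l1 start.

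Psma8, which replaces Psma7 in the proteasome of male germ cells, had no promoter peak in the replicated list or in pool H. Pool G's own list held a peak of 269 bp there with a fold enrichment of 3.79, at the 1.61 percentile of that list's marked genes, and a -log10 q of 5.42. The pseudoreplicated list of both pools held a peak of 242 bp at 2.88, with a -log10 q of 2.08. The nearest peak of the replicated list lay 22572 bp from a Psma8 start. Of 6 male germ cell markers, Dazl alone had a promoter peak in the replicated list, at 10.9, and the other 5 (Ddx4, Sycp3, Prm1, Tnp1 and Stra8) had none in any list.

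The 4 structural beta subunits, which hold the ring together but do not cut, were all marked, with a median of 16.1. Psmb2 was highest among them in the replicated list at 22.3 and in pool G at 27.6, while in pool H it had 16.6 and Psmb3 16.8. Psmb1 was lowest at 12.9, 15.8 and 10.3, and its replicated peak also covered a start of Tbp. This group also held the widest domains of all members in the replicated list, Psmb3 at 5966 bp and Psmb1 at 4184 bp. The Psmb3 width depended on the list: the domain was 6141 bp in pool G but 1817 bp in pool H, and the promoter peak of the replicated list was itself 2245 bp, so the rest came from joined neighbouring peaks. Psmb3 was the single member among the widest 5% of marked genes in the replicated list (4482 bp or more).

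Of the constitutive catalytic subunits, Psmb5 and Psmb6 sat near the middle of all marked genes in the replicated list, and Psmb7 sat higher. Psmb5, which carries the chymotrypsin-like activity, had a fold enrichment of 15.1 in the replicated list, 16.6 in pool G and 13.2 in pool H. Psmb6, the caspase-like subunit, had 14.4, 17.5 and 11.2. Psmb7, the trypsin-like subunit, had 17.95, 22.8 and 12.7. Psmb5 and Psmb6 thus lay at the 48.9 and 44.3 percentiles of marked genes in the replicated list and Psmb7 at 68.2. In pool G the percentiles of Psmb5, Psmb6 and Psmb7 were 42.1, 46.7 and 76.9, and in pool H 52.2, 37.1 and 48.5. Their domains were short, at 1118 bp for Psmb5, 1333 bp for Psmb6 and 1587 bp for Psmb7 in the replicated list, with Psmb6 at 807 bp in pool H.

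The immune subunits were marked in heart as well, in all 4 lists, but at very different levels. Psmb8 had the lowest fold enrichment of all marked members in the replicated list, 6.16, with 8.21 in pool G and 5.87 in pool H; it lay between the 10.1 and 12.5 percentiles of marked genes in these lists. Psmb9 had 17.01 in the replicated list, 21.8 in pool G and 12.7 in pool H. Psmb10 had 21.8, 25.4 and 16.6, at the 89.8 percentile of marked genes in the replicated list. The order Psmb10, Psmb9, Psmb8 held in each list, where the Psmb9 value is that of a peak shared with Tap1. Widths were less unequal, at 1639 bp for Psmb8, 2311 bp for Psmb9 and 1976 bp for Psmb10.

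Set against the constitutive subunit each one replaces, the immune subunits did not move in one direction. Psmb5 was 2.45 times Psmb8 in the replicated list, 2.02 times in pool G and 2.24 times in pool H. Psmb9 was 1.18 times Psmb6 in the replicated list, 1.24 times in pool G and 1.14 times in pool H. The Psmb9 peak is shared with Tap1, so its fold, and with it this ratio, cannot be assigned to Psmb9 alone. Psmb10 was 1.21 times Psmb7 in the replicated list, 1.11 times in pool G and 1.30 times in pool H. The direction within each pair was the same in both pools, and with 2 pools it was not tested. As for other cell types, the 7 leukocyte markers (Ptprc, Cd68, Cd3e, Itgam, Csf1r, Cd79a and Lyz2) had no promoter peak in the replicated list or pool H; in pool G Csf1r had one at 3.41. Of the antigen presentation genes, Irf8 and Ciita, which act mainly in immune cells, had peaks in all 4 lists, at 12.7 and 3.94 in the replicated list. The part of immune cells in the marks of Psmb8, Psmb9 and Psmb10 was not tested.

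Psmb8 and Psmb9 lie on chromosome 17 with the peptide transporter genes Tap1 and Tap2, which feed proteasome products to MHC class I. One peak of 17.01 fold enrichment (chr17:34186304-34188614) covered the starts of both Psmb9 and Tap1, which run in opposite directions from starts 38 bp apart; the summit lay 93 bp from the nearest Psmb9 start and 427 bp from the nearest Tap1 start, and the fold of the shared peak cannot be assigned to either gene. The Psmb8 peak (chr17:34197340-34198978) was separate, with starts of Psmb8 and Psmb9 10026 bp apart. Tap2 followed with a peak of 12.4 (chr17:34204419-34206008). The step from high to low to intermediate was also seen in pool G (21.8, 8.21 and 15.1) and in pool H (12.7, 5.87 and 10.9).

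**Figure D2:**
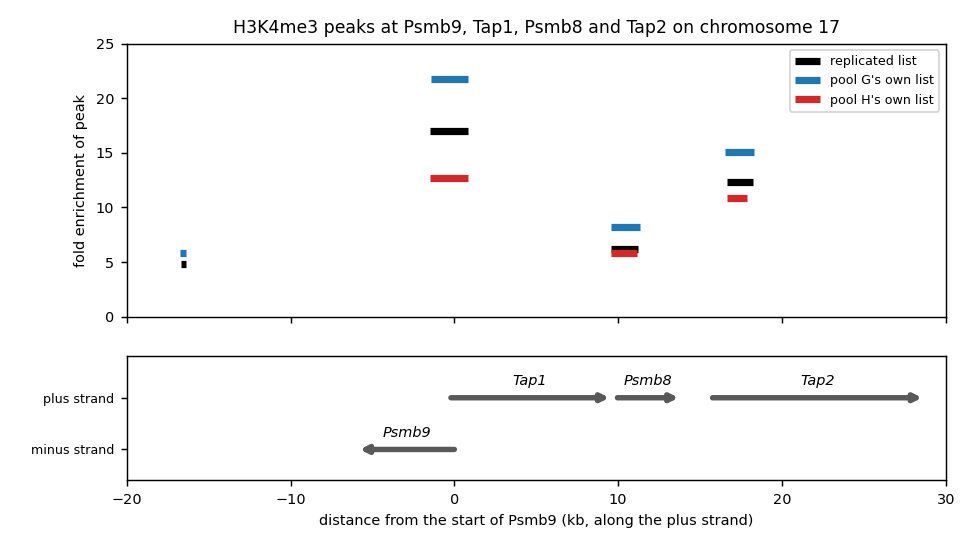
Peaks of 3 lists as horizontal bars (upper panel: x, distance from the Psmb9 start in kb; y, fold enrichment) above the genes with arrows in the direction of transcription (lower panel). In each list the bar at the shared start of Psmb9 and Tap1 is the highest of the 3 bars over these genes and the bar at Psmb8 the lowest.

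Psmb11 had no promoter peak in any list. The gene lies next to Psmb5 on chromosome 14 with starts 7288 bp apart, and the peak nearest to it was the Psmb5 promoter peak (chr14:54617160-54618277), which ended 7033 bp before the start of its longest transcript and 3156 bp before its other annotated start. Of 4 thymic epithelium markers Foxn1, the factor that specifies that epithelium, had no peak, whereas Prss16 (13.8), Ccl25 (16.4) and Ly75 (8.55) did in the replicated list.

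The 6 ATPases of the regulatory particle base, the ring that unfolds substrates, had a median fold enrichment of 18.5. Psmc2 was highest at 23.4 in the replicated list, 29.4 in pool G and 18.3 in pool H, over a wide domain of 3849 bp, which took in a second promoter peak. Its highest replicated peak also covered the start of Dnajc2. The summit lay 268 bp from the Psmc2 start and 169 bp from that of Dnajc2, so the fold cannot be assigned to either gene. Psmc5 was lowest at 14.1, 15.2 and 13.0, and its replicated peak also covered a start of Ftsj3. The summit lay 123 bp from the Psmc5 start and 198 bp from that of Ftsj3, so this fold has the same limit. Psmc4 and Psmc6 had 2 of the 3 narrowest domains of all members in the replicated list, 954 bp and 1117 bp; the third was the lid subunit Psmd6 at 1081 bp. The Psmc6 domain was 1057 bp in pool H but 1922 bp in pool G and 1631 bp in the pseudoreplicated list.

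The other 11 subunits of the regulatory particle, most of them in the lid and some acting as ubiquitin receptors, had a median of 19.1. Psmd12 was highest in the replicated list at 24.5. It had 28.0 in pool G, just under Psmd8 at 28.4, and 14.6 in pool H, where it fell at the 63.4 percentile against 97.3 in the replicated list. Psmd11 differed most between the pools of all members, at 26.3 in pool G and 11.2 in pool H, a log2 ratio of 1.23. Psmd13 was lowest in the replicated list at 14.3, with 17.9 in pool G, where Psmd7 was lower at 15.6. It had 10.96 in pool H, where Psmd6 was lower at 10.92. The replicated Psmd13 peak also covered a start of Sirt3, with its summit 159 bp from Psmd13 and 171 bp from Sirt3. Its fold cannot be assigned to either gene. Psmd14, the enzyme that removes ubiquitin from the substrate, had 22.7 in the replicated list.

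The 3 chaperones that assemble the regulatory particle had lower values, with a median of 13.8. Psmd9 had 16.3 in the replicated list, Psmd5 13.8 and Psmd10 10.7. Psmd10, also known as gankyrin, had 13.8 in pool G and 8.89 in pool H. It is the one X-linked member, and the median of the 421 marked X-linked genes was 10.4; the part of X linkage in its value was not tested. The 4 chaperones of the core, Psmg1 to Psmg4, had a median of 18.2, from 15.2 at Psmg2 to 21.0 at Psmg4. The replicated Psmg2 peak also covered a start of Cep76.

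Among the activators Psme3, the nuclear PA28 gamma subunit, had the highest fold enrichment of all members in the replicated list, 26.0, and in pool G, 30.9; in pool H, at 21.2, it came after Psma3 and Psma7. Psme1 and Psme2 encode the PA28 alpha and beta subunits, which are induced by interferon along with the immune catalytic subunits. Psme1 had 23.2, 28.1 and 18.5, and Psme2, whose start lies 12727 bp away on the other strand of chromosome 14, had 16.9, 18.9 and 16.5. The Psme2 values are not of the same peak. In the replicated list the value is of a 913 bp peak downstream of the longest transcript's start, beside an upstream peak at 14.4. In pool H the upstream peak was the higher, and the downstream one had 13.3. Pool G's list held a single peak of 2775 bp there. Psme4, the PA200 activator that is abundant in testis, had 16.7, 20.8 and 12.6 with a wide domain: 3701 bp in the replicated list, 4676 bp in pool G's and 3246 bp in that of pool H. Psmf1, which encodes the inhibitor PI31, was the second lowest of the marked members in the replicated list at 9.61, with 10.5 in pool G and 8.09 in pool H.

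**Figure D3:**
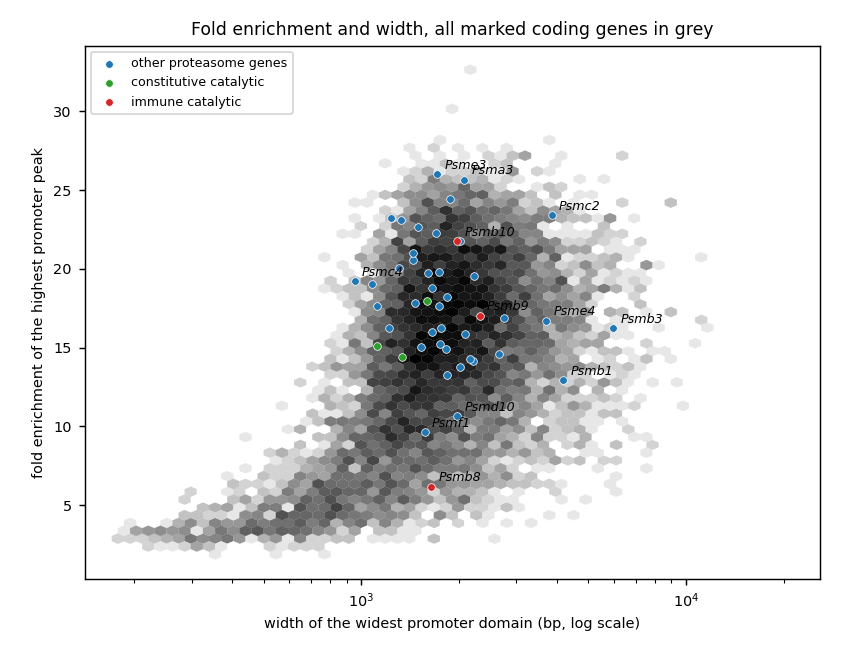
Fold enrichment of the highest promoter peak (y axis, linear) against the width of the widest promoter domain (x axis, bp, log scale) in the replicated list, with all marked coding genes as grey hexagons (darker is more genes, log scale) and the 46 marked members as points. Most members lie in the dense part of the cloud, Psmb8 lies low at 6.16, and Psmb3 and Psmb1 lie to the right at 5966 and 4184 bp.

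Fold enrichments were higher in pool G's list than in pool H's at nearly all members. Of the 46 members with a peak in both pools' own lists, 45 (97.8%) had the higher fold enrichment in pool G, which was also so for 96.1% of all such genes. The median log2 ratio of pool G to pool H was 0.53 (SD 0.26) over the members and 0.51 (SD 0.28) over all genes. Across the 46 members Pearson's r between the pools' log2 values was 0.76 and Spearman's rho 0.67, given as a description, since both lists share the offset and genes are not replicates. Domain widths of the pools were within a factor of 1.25 of each other in 35 of 46 members. No share over all genes is given beside that count, so it does not set the members apart. The replicated value lay below both pools' values at 5 members (10.9%, beside 7.41% of all genes) and above both at 1 (2.17%, beside 4.44%; Psmd7, 18.8 against 15.6 in pool G and 14.5 in pool H).

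Nearly all marked members had a peak over a start, and by their medians the highest peaks reached further into the gene than away from it. A peak of the replicated list covered a coding start in 45 of 46 marked members, beside 93.6% of all marked genes; the exception was Psmc6, whose peak began 4 bp past the start. Measured from the start of the longest transcript, the highest promoter peak reached a median of 502 bp upstream and 1107.5 bp downstream. Separate upstream peaks at Psma1, Psmd10 and Psme2 are not in these medians. No medians over all marked genes are given beside them, so they do not set the members apart. The summit lay downstream of the nearest start in 42 members, beside 77.6% of all marked genes, and upstream at Psma7, Psmc2, Psme4 and Psmg1. It lay 100 to 500 bp downstream in 35 of 46 members, beside 56.8% of all marked genes. By the longest transcript, the summit fell in intron 1 in 25 members, in exon 1 in 17, upstream in 3 and in intron 2 at Psmb10, where it was 821 bp past the start. Shares over all marked genes were not taken for these exon and intron counts. The summits of Psmb8 and Psmb9 were 644 and 638 bp past the start of the longest transcript, so the 3 immune genes had the most distant summits of the marked members on that measure; from the nearest annotated start the distance was 644 bp at Psmb8 and 93 bp at Psmb9.

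**Figure D4:**
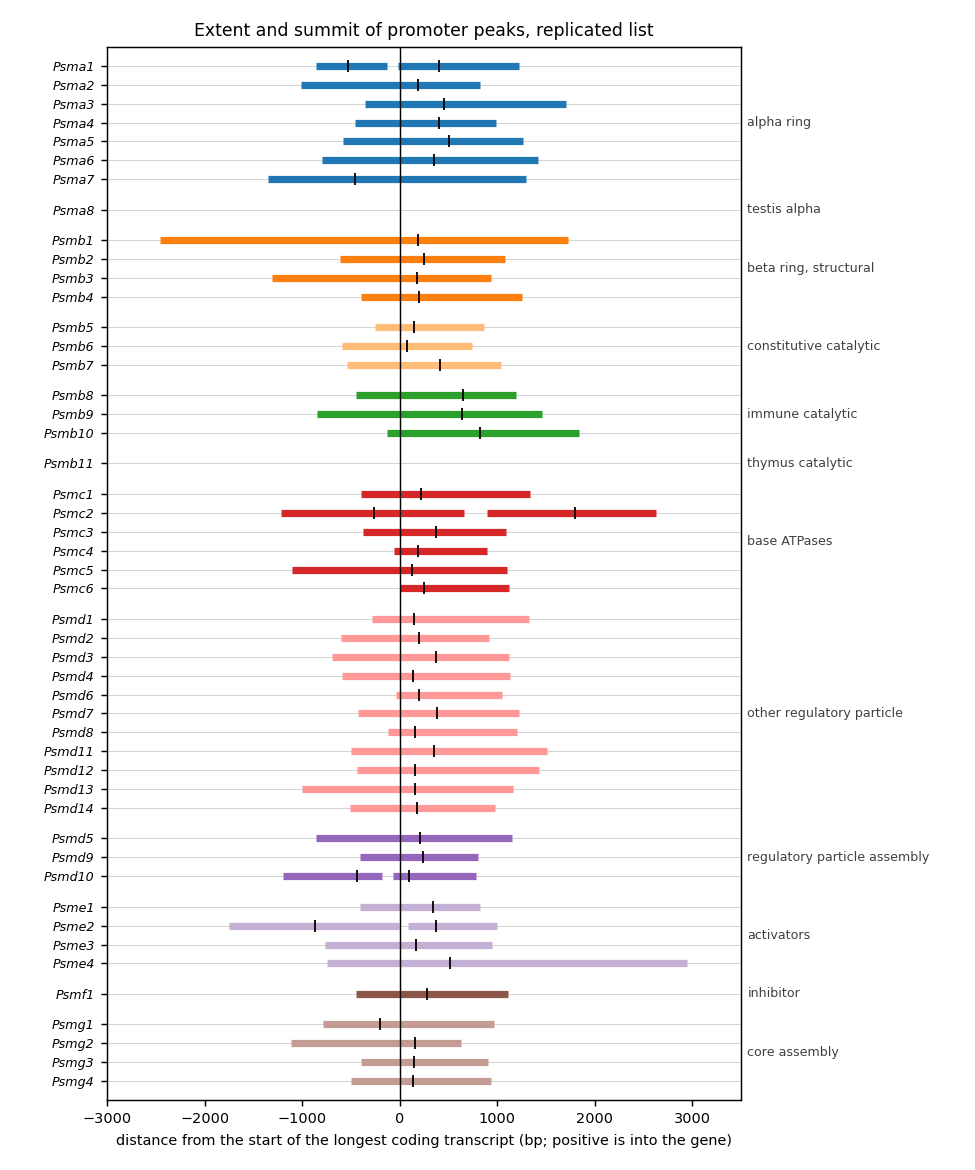
Extent of each promoter peak of the replicated list (bars, coloured by structural class) and its summit (black ticks) in bp from the start of the longest coding transcript (x axis, positive into the gene), for the 48 genes (y axis). Most bars cross the start and most ticks lie to its right; Psma8 and Psmb11 have no bar, and Psma1, Psmc2, Psmd10 and Psme2 have 2 bars each.

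Of the marked members, 10 shared their highest promoter peak with the start of another protein-coding gene, beside 17.2% of all marked genes. In 9 of the 10 the other gene ran the opposite way, from a start 32 to 263 bp away. The pairs were Psma2 with Mrpl32, Psma4 with AY074887, Psma7 with Ss18l1, Psmb1 with Tbp, Psmb9 with Tap1, Psmc2 with Dnajc2, Psmc5 with Ftsj3, Psmd13 with Sirt3 and Psmg2 with Cep76; Psmg3 and Gm26938 run the same way with starts 436 bp apart. Among the partners, Tbp encodes the TATA-binding protein, Mrpl32 a mitochondrial ribosomal protein, Sirt3 a mitochondrial deacetylase and Tap1 a peptide transporter. The summit was nearer to the proteasome gene's start in 8 of the 10, the exceptions being Psma7 and Psmc2. For direction and for summit no share over all genes with shared peaks is given, so these counts do not set the members apart. The 10 sharing members had a median fold enrichment of 16.1 and a median width of 2186 bp, and the other 36 had 17.8 and 1671.5 bp.

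The members were marked both at CpG-rich promoters and at most others. A promoter was counted as CpG-rich where, within 1000 bp of a start, CpG reached 0.6 of the number expected from the base composition and G plus C a share of 0.5 or more. By this measure 17 of 48 members (35.4%) were CpG-rich, beside 33.7% of all genes. The GC bound decided much of that count: by the CpG ratio alone, a setting chosen after the data were seen, 27 members (56.2%) passed, beside 38% of all genes. The median number of CpG in up to 250 bases before the start was also higher, 14.5 in the 40 members with a RefSeq promoter and 10 in all promoters. All 17 were marked, beside 96.7% of CpG-rich genes. Of the other 31, 29 were marked, beside 46.0% of CpG-poor genes; the exceptions were Psma8 and Psmb11. The 29 had a median fold enrichment of 17.6, beside 13.4 for all marked CpG-poor genes. By the CpG ratio alone, 19 of the 21 members under it were marked, beside 42.6% of all such genes. The ratio of observed to expected CpG was 0.366 at Psmb10 and 0.352 at Psmb11, near each other, while Psmb10 had one of the higher peaks and Psmb11 none; the ratio at Psmb8 was 0.557.

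Motifs were searched on both strands in up to 250 bases before the RefSeq start of the 40 members in that table. Psma8, Psmb1, Psmb2, Psmb7, Psmc3, Psmd3, Psmd7 and Psmg2 were not in it. Without bases annotated as UTR, the sequences of Psmb10 and Psmb5 held 198 and 223 bases. The Psmb8 sequence shown above is another window, and its capitalised GC box does not enter the counts. None of the motifs is contained in another. Of the 8 motifs, the ETS core CCGGAAG differed most in its share. It was found before 12 of 40 members (30%) and in 9.31% of all 20054 promoters, or 12.7% of those of marked genes. It stood before Psme3 at position -107, counted back from the start to the first base of the match, and is capitalised in its sequence above. The palindrome TGCGCA, a core of the nuclear respiratory factor site, was found in 6 (15%, against 8.20% of all and 11% of marked promoters).

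Shares of the other motifs were closer to those of all or of marked promoters. The antioxidant response core TGACNNNGC, of the kind bound by the stress factors Nfe2l1 and Nfe2l2, occurred before 5 members (12.5%, against 10.7% of all promoters and 11.5% of marked ones), among them Psmb5 at -47 and Psmb6 at -9. GC boxes, GGGCGG, occurred before 22 members (55%, against 44.3% of all and 58.3% of marked promoters), and CCAAT boxes before 13 (32.5%, against 35.1% and 34.7%). The TATA string TATAAA occurred before 4 (10%, against 11.2% and 6.42%). Of the interferon motifs, the ISRE core GAAANNGAA occurred before 3 members (7.5%, against 6.93% and 5.79%), none of them an immune subunit, and the GAS core TTCNNNGAA before 2 (5%, against 6.62% and 5.76%), Psmg1 and Psmb8, the latter at -97 from a RefSeq start that lies 405 bp inside the longest GENCODE transcript. These matches describe letters in the window and were not tested for binding.

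Most genes listed as working with the proteasome were marked too, where 63.0% of all genes were and the median of all marked genes was 15.3. Many are CpG-rich, a class marked at 96.7%: 9 of 11 partners, 8 of 9 regulators, 8 of 12 ubiquitin and shuttle genes and 6 of 12 antigen presentation genes. Of 11 partners outside the symbol rule, 11 had a promoter peak in the replicated list with a median of 18.2, highest at Txnl1 (22.8), a thioredoxin-like protein of the regulatory particle; Pomp, the maturation factor that helps form the catalytic rings, had 15.5. Paaf1, also listed, was not matched by symbol and has no value here. Of 9 genes that regulate proteasome transcription, 9 were marked with a median of 16.9, highest at Nfe2l2 (23.7), with Nfe2l1, the factor that restores proteasome levels when the protease is inhibited, at 17.4 over a domain of 7521 bp. Of 12 ubiquitin and shuttle genes, 11 were marked with a median of 16.4, highest at Rad23b (25.02), a shuttle for ubiquitinated proteins; the exception was Ddi1. Of 12 antigen presentation genes, 12 were marked with a median of 15.0, from 3.94 at Ciita, the activator of MHC class II genes, to 26.1 at Erap1, which trims peptides.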

How the data were processed

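H3K4me3 ChIP-seq peak lists of 2 heart pools were used, with 4 libraries of fragments of 200 to 600 bp, per the labels. Both technical replicates of a pool share 1 alignment in the deposited notes, so there were no values per library. The sources used here do not give the peak caller, its threshold or the read depth, and intervals for depth were therefore not computed. The labels name a possible control without saying whether it was used. The authors' deposited signal value was taken to be fold enrichment, a ratio to control; this is an assumption, because no header names the column. Each peak's -log10 q value and summit offset are deposited values too. Lists were made separately, so values were compared within a list unless set side by side.

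Genes and starts came from GENCODE M21. A peak counted where it overlapped the 1000 bp on either side of a coding start by at least 1 bp; the highest gave the fold enrichment, and peaks up to 1000 bp apart were joined into domains. Percentiles are among the marked genes of a list. Members and gene lists were chosen with earlier results of these data known. Genes in full were the catalytic, germ cell and activator genes, members without a peak, the 3 highest and lowest, the 3 widest and narrowest, the extremes of each class and the members with shared peaks; Psmd14, Psmd11, Pomp, Nfe2l1 and Ciita were added after their values were seen. No test was run: 2 pools allow none, and genes are not replicates. One listed marker gene is not reported here. Interval code was tested on simulated data. Alternatives covered each of the 3 further lists, peaks with -log10 q of 5 or more, promoter windows of 500 bp and of 2000 bp, the start of the longest transcript alone, other gaps, the nearest peak, longer symbols and no shared peaks. The software was matplotlib 3.10.9, scipy 1.17.1, pandas 2.3.3 and numpy 2.4.6 under Python 3.11.15.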

Additional observations from a re-analysis of the deposited data

How the results depend on the processing

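The count of marked members stayed between 46 and 47 under the 8 alternatives run for it: each of the 3 further lists, a -log10 q minimum of 5, promoter windows of 500 bp and of 2000 bp, the start of the longest transcript alone, and counting Psmc3ip and Psme2b as members. The members' median fold enrichment ranged from 14.49 (pool H) to 20.75 (pool G) and their median width from 1587 to 1890 bp, each also set by the pool's list; without joining gaps it was 1701 bp beside 1627 bp for all marked genes. The log2 ratio of Psmb5 to Psmb8 was 1.29 in the replicated list, 1.02 in pool G and 1.17 in pool H, and the cause was not tested. The log2 ratios of Psmb6 to Psmb9 and Psmb7 to Psmb10 kept their sign in the 8 alternatives run for each. Only the pools' own lists changed the values, to -0.32 and -0.16 in pool G and -0.19 and -0.38 in pool H. The other alternatives returned the replicated list's -0.24 and -0.28 unchanged, so they add little. The Psmb9 value is again that of the peak shared with Tap1. Of the single genes, Psmb8 (8.21) and Psme2 (18.9) moved in pool G by more than the SD of the pools. That SD comes from the pools' values alone, pool G's among them, so it is no independent measure of spread. At Psme2 pool G's list held a single peak over what the replicated list held as separate peaks, so unlike peaks were compared. Psma8 gained a peak in pool G (3.79) and in the pseudoreplicated list (2.88), and had none in pool H. Psmb11 had none in any of these lists. In the replicated list neither gene had a peak with the 2000 bp window. The -log10 q minimum of 5, the 500 bp window and the longest transcript alone only narrow the replicated list's call. At these 2 genes such settings could not return a peak. The count of CpG-rich members rose from 17 to 27 without the GC bound, an alternative added after seeing the data. No paired analysis was possible because the results come from no test and the technical replicates share 1 alignment per pool, so leaving out a pool means reading the other pool's own list. Read depth was not given, so a missing peak means only that none was called in these lists.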

Other observations

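The 2 coding genes whose symbols only begin like those of the proteasome differed from each other. Psmc3ip, a factor of meiotic recombination, had a promoter peak of 12.4 in the replicated list, 14.9 in pool G and 12.1 in pool H over 1287 bp. Psme2b, a copy of Psme2, had no promoter peak in any list. Fold enrichment and width were related differently among the members and among all marked genes, as a description across genes that are not replicates: the Spearman correlation was -0.19 over the 46 members and 0.41 over 13657 genes.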
